A study of Sus scrofa with 4 samples.

Results

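The genes described here encode complement components and regulators. They are C1QA, C1QB, C1S, C2, C3, C7, CFB, CD46 and CD59, and they were chosen by name, as every probe whose RefSeq accession in the scanner output belongs to 1 of these 9 pig genes. This gave 9 of the 3020 genes that could be named, and 15 of the 43603 probes on the array. C3 had 5 probes, C1S and C2 had 2 each, and the other 6 genes had 1 each.

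Complement is a cascade of secreted proteins that coats microbes, immune complexes and dying cells, attracts leukocytes and can pierce membranes. It starts through C1, through lectins that bind sugars, or through the alternative pathway, and all routes meet at the cleavage of C3. The liver supplies most of the complement in plasma, whereas in tissues macrophages are the main source of C1q, and macrophages, fibroblasts and endothelial cells make several of the other components. In the thymus, macrophages take up the many thymocytes that die during selection.

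Thymus RNA was compared between IL2RG KO pigs and wild type (WT) pigs, with 2 samples of each genotype and 1 array per sample, all of the breed Minnesota miniature swine. The KO pigs carry the label IL2RG+/-, and in the series they are called monoallelic KO pigs (mIL2RG+/Δ69-368). They were cloned by nuclear transfer from cells cut in IL2RG with TALENs, and IL2RG, the X-linked gene of the receptor chain shared by IL2 and several other cytokines, was the targeted gene. KO arrays could be made only from the animals that had kept a rudimentary thymus, which limits them as a model, and neither age, sex nor the donor cell colony is given for the animals on the arrays. No treatment is named for either genotype.

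On these arrays a spot holds copies of 1 short DNA probe, and its brightness follows the amount of the matching mRNA. Values are log2 signals from which the 75th percentile of their array was subtracted, and a difference is KO minus WT on that scale. They compare 1 probe between arrays and not 1 probe with another. A probe counted as called at a Benjamini-Hochberg adjusted p under 0.05 in limma over all 31959 tested probes and a difference of at least 2-fold. The KO arrays detected 74.5% and 73.5% of their probes above background, and the WT arrays 67.9% and 68.2%. IL2RG, the check of the labels, was -3.15 and -3.29 in KO against -0.13 and 0.52 in WT, and its second probe fell as well. Thymocyte genes marked the tissue as thymus in WT, with the recombinase gene RAG1 at 3.85 and 4.07 in WT and -2.93 and -4.50 in KO. KO was lower at all 14 thymocyte markers that could be tested, and their median log2 difference was -2.80. The samples are bulk tissue, so fewer cells of a type and less RNA per cell cannot be told apart.

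In KO thymus 8 of the 9 complement genes were higher than in WT, and CD46 was not called. Of the 15 probes, 14 were called higher, those of the 8 genes. Among all tested probes 21.0% were, and among the probes with a gene name 23.0%. None of the 15 was called lower, against 13.0% of all tested probes. The increase was 4-fold or more at all 14 probes, compared with 11.2% of all tested probes, although at the C3 probes it was only just so, and the count past 4-fold was 9 with the arrays scaled to their medians, 6 without KO replicate 2 and 8 without WT replicate 2. Both KO arrays lay above both WT arrays at the same 14 of the 15 probes, as they did at 37.7% of all tested probes. The median log2 difference over the 15 probes was 2.39, while that over all tested probes was -0.06. The members were chosen with earlier results of these data known, so the shares describe them and are no test of the list.

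**Figure D1:**
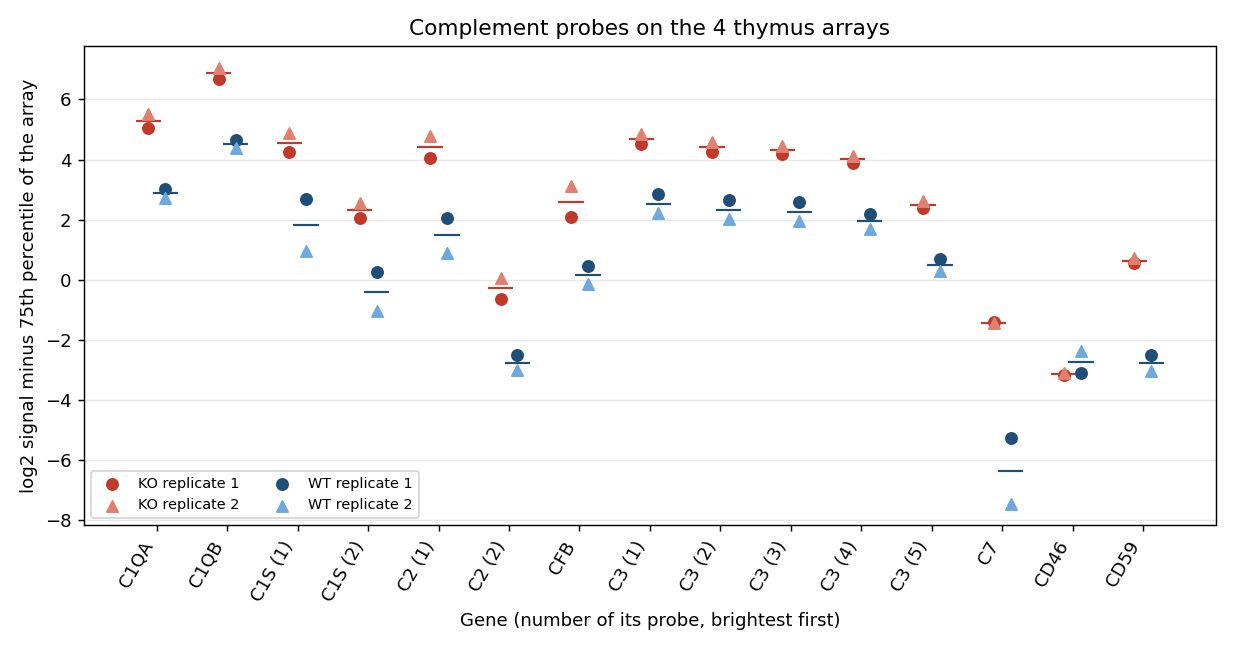
Each point is the log2 signal of 1 of the 15 complement probes on 1 array, relative to the 75th percentile of that array, with KO in red, WT in blue and short lines at the mean of each genotype (n = 2). The KO points lie above the WT points at every probe except that of CD46.

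C1q is the recognition part of C1 and is built of the A, B and C chains, which the genes C1QA, C1QB and C1QC encode. The signal of C1QA (probe A_72_P165561) was 5.06 and 5.50 in KO against 3.04 and 2.74 in WT. The KO mean was 5.28 ± 0.32 (SD, n = 2), the WT mean was 2.89 ± 0.21 (SD, n = 2), and this made a log2 difference of 2.39, or 5.26-fold (standard error 0.23, adjusted p = 0.00365 in limma). C1QB (probe A_72_P442926) was 6.67 and 7.05 in KO against 4.64 and 4.40 in WT, with a log2 difference of 2.34, or 5.08-fold (standard error 0.21, adjusted p = 0.00317 in limma). C1QC, the gene of the third chain, was 4.98 and 5.12 in KO and 2.82 on each WT array, a log2 difference of 2.23 (standard error 0.16, adjusted p = 0.00227 in limma). In the Sscrofa11.1 gene table of RefSeq the 3 genes follow each other in the order C1QA, C1QC and C1QB, with 0 other protein-coding genes between them. For none of the 3 did the arrays of a genotype differ by more than 0.45 on the log2 scale, and the gap from the higher WT array to the lower KO array was 2.02 for C1QA and 2.03 for C1QB.

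C1S encodes the protease of C1 that cuts C4 and C2. Its brighter probe (A_72_P088781) was 4.24 and 4.88 in KO against 2.68 and 0.96 in WT. The KO arrays lay above the WT arrays, but the WT arrays differed by 1.72 from each other. The log2 difference was 2.74, or 6.69-fold (standard error 0.64, adjusted p = 0.027 in limma), and its 95% confidence interval reached from 1.03 to 4.45. The other probe of C1S was 2.06 and 2.56 in KO against 0.26 and -1.05 in WT, a log2 difference of 2.70 (standard error 0.50, adjusted p = 0.0147 in limma). Its size, like that of the brighter probe, moved with the WT arrays. The log2 differences of the brighter and the dimmer probe were 1.88 and 2.04 without WT replicate 2 and 3.60 and 3.35 without WT replicate 1. With a KO array left out, the WT arrays were the only pair from which the spread of a probe could be taken. The log2 differences of the brighter and the dimmer probe were 3.06 and 2.95 without KO replicate 1. Without KO replicate 1 the brighter probe was no longer called, and without KO replicate 2 neither probe was, with log2 differences of 2.42 and 2.45 and adjusted p values of 0.102 and 0.0642 in limma.

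C2 and factor B (CFB) supply the proteolytic parts of the C3 convertases, C2 in the classical and lectin pathways and CFB in the alternative pathway. They are paralogs and stand side by side in the gene table. The brighter C2 probe (A_72_P036031) was 4.07 and 4.79 in KO against 2.06 and 0.90 in WT, a log2 difference of 2.95, or 7.72-fold (standard error 0.49, adjusted p = 0.0113 in limma). The dimmer C2 probe was -0.62 and 0.06 in KO against -2.50 and -3.01 in WT, a log2 difference of 2.47 (standard error 0.32, adjusted p = 0.00654 in limma). At both probes the groups stayed apart by at least 1.88. CFB (probe A_72_P302604) was 2.09 and 3.11 in KO against 0.47 and -0.13 in WT. Its log2 difference was 2.42, or 5.37-fold (standard error 0.42, adjusted p = 0.013 in limma). Among the 15 probes it was the one at which the KO arrays differed most, with KO replicate 2 higher by 1.01, and even so the lower KO array exceeded the higher WT array by 1.62.

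C3 is the hub of the cascade, and its fragments coat targets and attract cells. The brightest of the 5 C3 probes (A_72_P165601) was 4.50 and 4.86 in KO against 2.85 and 2.21 in WT, a log2 difference of 2.15, or 4.44-fold (standard error 0.29, adjusted p = 0.007 in limma). The 5 probes gave log2 differences between 2.01 and 2.15, that is from 4.02-fold to 4.44-fold, and all were called. They measure the same transcript and are no replicates of the condition. All 5 probes were still called with any 1 array left out.

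C7 is a terminal component that anchors the forming membrane attack complex to the membrane. Its probe (A_72_P147041) was -1.41 and -1.44 in KO against -5.25 and -7.44 in WT. It was well above background on both KO arrays but on only 1 of the 2 WT arrays, and the 2 WT values lay 2.19 apart. The log2 difference was 4.92, or 30.2-fold (standard error 0.75, adjusted p = 0.00944 in limma), with a 95% confidence interval from 2.90 to 6.94. Its size depended on how the dim WT spots were treated. With WT replicate 2 set to the lowest signal detected on that array it was 4.16, without WT replicate 2 it was 3.82, without WT replicate 1 it was 6.01, and under the normexp background correction it was 2.10, where the call held.

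CD59 blocks the membrane attack complex on host cells. Its probe (A_72_P146701) was 0.55 and 0.71 in KO against -2.51 and -3.04 in WT. The KO arrays were 3.06 or more above the WT arrays, and the log2 difference was 3.41, or 10.6-fold (standard error 0.24, adjusted p = 0.00227 in limma). Under normexp it was 2.76. CD46 is a cofactor with which host cells inactivate C3 and C4 fragments on their surface. Its probe (A_72_P441544) was -3.18 and -3.10 in KO against -3.09 and -2.35 in WT, so that WT replicate 1 and KO replicate 2 lay less than 0.01 apart. The log2 difference was -0.41 (standard error 0.29, adjusted p = 0.299 in limma), and its 95% confidence interval, from -1.19 to 0.37, left out any increase of the size seen at the other members. This interval rests on 1 probe and covers the spread between 2 arrays per genotype.

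**Figure D2:**
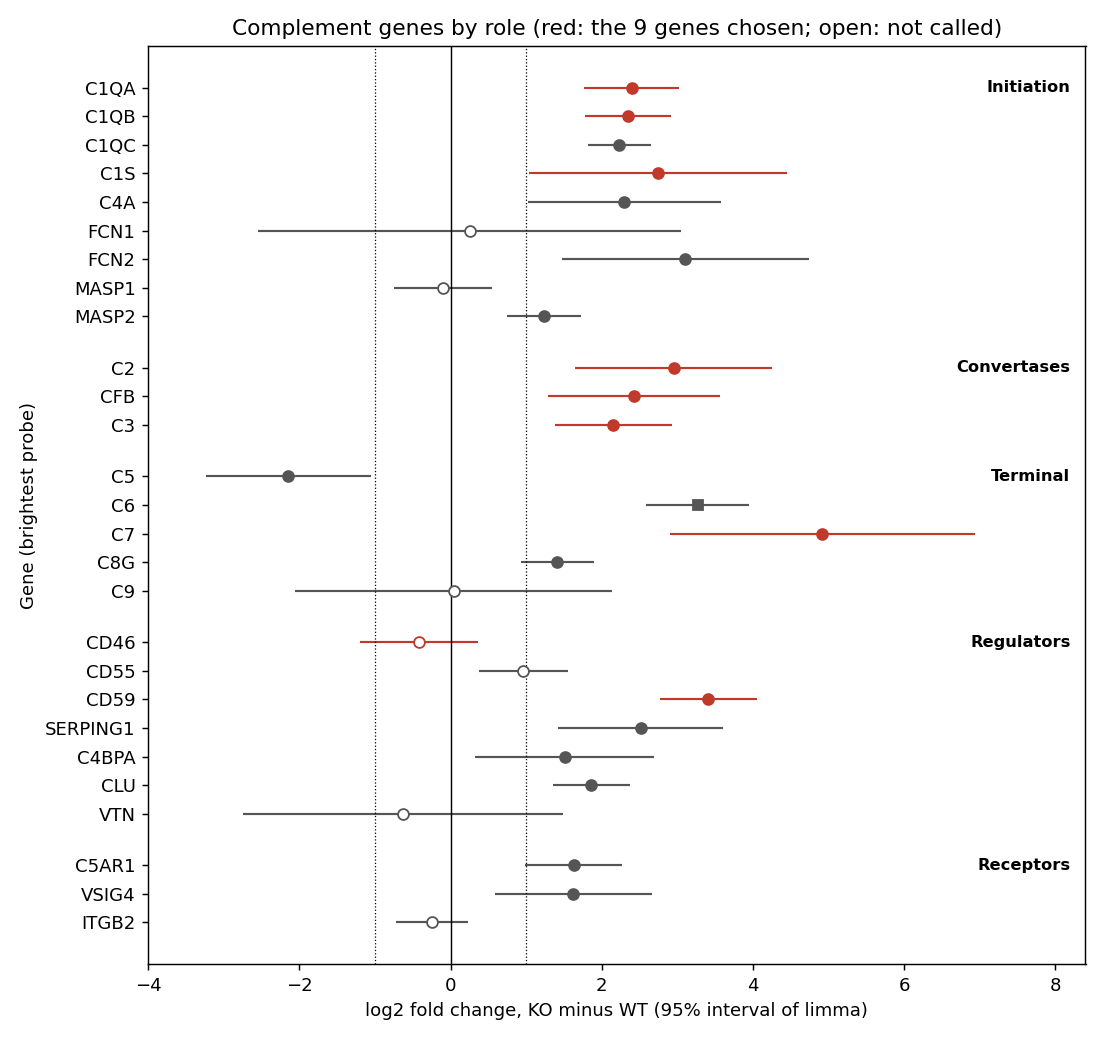
Each point is the log2 difference, KO minus WT, of a complement gene by its brightest probe, with the 95% confidence interval of limma, the 9 chosen genes in red and further complement genes in grey. Dotted lines mark 2-fold, open points were not called, and the square marks C6, which was detected on neither WT array. Most genes of initiation and all of the convertases lie right of the upper line, whereas C5 lies left of the lower one.

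The other genes of the system were read from a list of 43 complement genes, of which 23 had a named probe and 19 could be tested. By their brightest probes 12 were higher in KO, 1 was lower and 6 were not called, with a median log2 difference of 1.51, where 21.0% of all tested probes were called higher and 13.0% lower. Leaving out either KO array left 7 called higher and 0 lower. MBL1 and MBL2, which encode mannose-binding lectins, and C8A and C8B, which encode chains of C8, did not rise above background on any array.

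Among the genes of initiation 4 of 6 were higher (C1QC, C4A, MASP2 and FCN2). C4A, the gene of C4, had 3 probes, all called higher, and the brightest was 4.89 and 5.36 in KO against 3.45 and 2.20 in WT, a log2 difference of 2.30 (standard error 0.48, adjusted p = 0.02 in limma). Near-identical C4 copies could share this signal, and the call of the brightest probe was lost with either KO array left out. Its log2 difference was 1.67 without WT replicate 2 and 2.93 without WT replicate 1. FCN2, the gene of a ficolin of the lectin pathway, was 3.66 and 5.09 in KO against 1.78 and 0.76 in WT. Its log2 difference was 3.10 (standard error 0.61, adjusted p = 0.0174 in limma), and KO replicate 2 exceeded KO replicate 1 by 1.43. It was 2.39 without KO replicate 2 and 3.82 without KO replicate 1. FCN1 was -2.33 and -0.78 in KO against -0.49 and -3.13 in WT, with the genotypes overlapping, and was not called. MASP2, a protease of the lectin pathway, was dim and differed by 1.23 on the log2 scale, and its call was lost under quantile normalization, median scaling and normexp and without KO replicate 1.

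Of the terminal components C6 and C8G were higher and C5 was lower. C6, which stands beside C7 in the gene table with 1 protein-coding gene between them, was detected on both KO arrays, at -4.42 and -4.38, and on neither WT array. This made it at least 2.67-fold higher in KO (fitted adjusted p = 0.00252 in limma), and its call was lost under normexp. The other 2 probes of C6 were not tested, since they were well above background on no array, KO included. C8G, the gene of the gamma chain of C8, was -1.92 and -2.20 in KO against -3.43 and -3.52 in WT, and its call was lost under normexp and without KO replicate 1. C5 was -4.44 and -4.27 in KO against -2.76 and -1.65 in WT, a log2 difference of -2.15 (standard error 0.41, adjusted p = 0.016 in limma). It was dim on every array, its second probe was not called, its log2 difference was -1.25 under normexp, and its call was lost with either KO array left out.

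Of the regulators, SERPING1, C4BPA and CLU were higher. SERPING1, the gene of the C1 inhibitor, was 4.96 and 5.35 in KO against 3.17 and 2.12 in WT, a log2 difference of 2.51 (standard error 0.41, adjusted p = 0.0107 in limma). Its other 2 probes were called too. The call of SERPING1 was lost without KO replicate 2, where limma gave a log2 difference of 2.32 and an adjusted p of 0.0519. C4BPA was near the threshold, with an adjusted p of 0.0485 in limma for its brightest probe and 4 of 5 probes called, and the brightest was not called under median scaling, with no filter, with the replicate number as a block, or without KO replicate 1, KO replicate 2 or WT replicate 2. CLU, the gene of clusterin, which binds terminal complexes in fluid, was 4.11 and 4.24 in KO against 2.48 and 2.15 in WT, a log2 difference of 1.86 (standard error 0.19, adjusted p = 0.00396 in limma). CD55, which speeds the decay of the convertases on host cells, was -0.04 and 0.06 in KO against -0.72 and -1.19 in WT. Its log2 difference was 0.96 (standard error 0.22, adjusted p = 0.0254 in limma), just under 2-fold. VTN differed between its 6 probes, of which 2 dim ones were called higher and the brightest was not called.

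Of the receptors, C5AR1, which binds the anaphylatoxin of C5, and VSIG4, a macrophage receptor for C3 fragments, were higher at all of their 2 and 5 probes. Their brightest probes had log2 differences of 1.63 (adjusted p = 0.0086 in limma) for C5AR1 and 1.62 (adjusted p = 0.0292 in limma) for VSIG4. Without KO replicate 2 neither was called, and without KO replicate 1 VSIG4 was not. ITGB2, the beta chain of the complement receptors CR3 and CR4 and of other leukocyte integrins, was 4.04 and 4.32 in KO against 4.44 and 4.42 in WT, with a log2 difference of -0.25 (standard error 0.18, adjusted p = 0.303 in limma).

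Each slide held both genotypes, so KO and WT could also be set side by side within a slide. On slide 1, which held KO replicate 1 and WT replicate 2, the 14 called probes had log2 differences from 2.08 to 6.03. On slide 2, with KO replicate 2 and WT replicate 1, they ranged from 1.89 to 3.80. CD46 was -0.82 on slide 1 and -0.004 on slide 2.

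**Figure D3:**
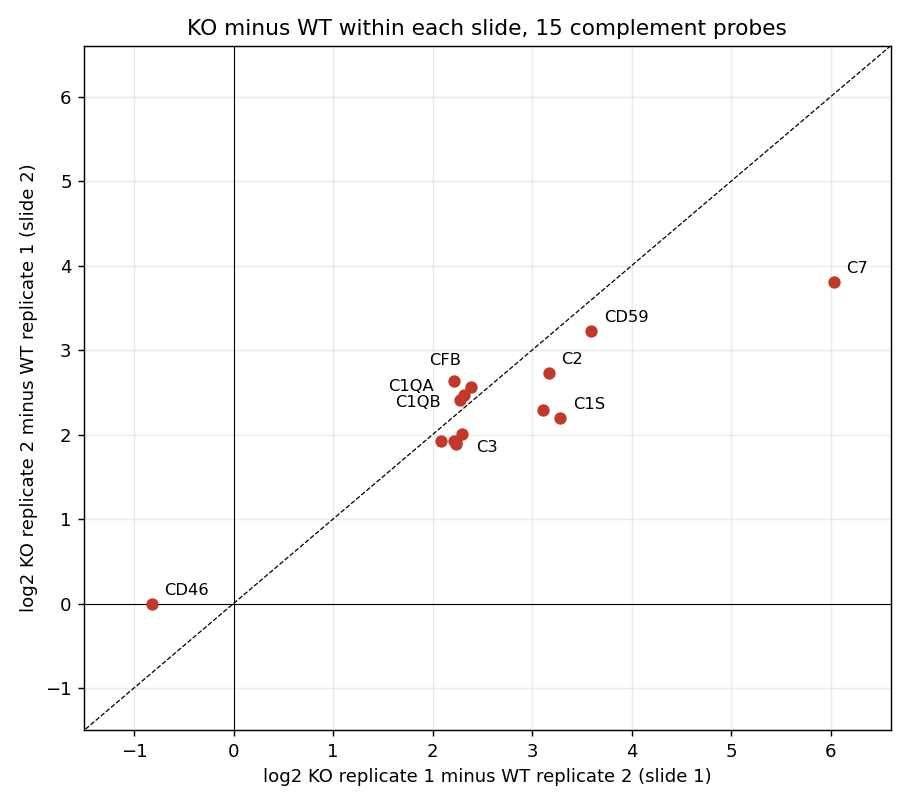
Each point is 1 of the 15 complement probes, with the log2 difference of the KO and WT arrays of slide 1 on the horizontal axis and that of slide 2 on the vertical axis, and the dashed line marks equal values. All probes but that of CD46 lie above 1.8 on both axes, and C7 and C1S lie furthest below the line.

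The members also varied together within each genotype. KO replicate 2 was higher than KO replicate 1 at 14 of the 15 probes, the exception being C7, and WT replicate 1 was higher than WT replicate 2 at 14 of the 15, the exception being CD46. Over all tested probes these shares were 50.2% and 49.8%. KO replicate 2 and WT replicate 1 were both on slide 2, so this order cannot be told apart from a difference between the slides. The median distance was 0.36 on the log2 scale between the KO arrays and 0.61 between the WT arrays, compared with 0.16 and 0.30 over all tested probes. Some marker lists of other cells moved the same way within the genotypes. KO replicate 2 was the higher KO array and WT replicate 1 the higher WT array at all 4 fibroblast and all 5 endothelial markers tested. All 4 neutrophil markers tested had this order too. Of the 10 macrophage markers, 9 were higher in KO replicate 2, the exception being SPI1, and 9 in WT replicate 1, the exception being CD163. The epithelial markers did not share this order, with 2 of 4 higher in KO replicate 2 and 2 of 4 in WT replicate 1. The arrays of a genotype differed by over 1 at C1S, C2, CFB and C7.

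Marker lists of cell types were read beside the members. For comparison, 21.0% of all tested probes were called higher and 13.0% lower, and the median log2 difference over all tested probes was -0.06. All 10 macrophage markers tested were higher in KO, with log2 differences from 1.27 (CD86) to 3.05 (MRC1) and a median of 1.92, and their summed signal, in units of the 75th percentile of the array, was 142 and 169 in KO against 42.9 and 26.9 in WT. CD163, a scavenger receptor of macrophages, was 4.53 and 5.10 in KO against 2.85 and 2.86 in WT. Of the fibroblast markers 3 of 4 were higher, with a median of 1.59 and a summed signal of 115 and 175 in KO against 63.2 and 27.3 in WT. Of the endothelial markers 4 of 5 were higher, with a median of 1.79 and a summed signal of 19.2 and 21.2 in KO against 7.15 and 4.65 in WT. Of the 4 epithelial markers 3 were higher and EPCAM, at a log2 difference of 0.37, was not called. The summed epithelial signal was 233 and 222 in KO against 71.7 and 48.1 in WT. Such sums follow the brightest probe of a list most and do not show a change of the whole list. In the epithelial list that was KRT8, at 7.61 and 7.54 in KO against 5.65 and 4.76 in WT. In the fibroblast list it was DCN, at 6.62 and 7.24 in KO against 5.78 and 4.50 in WT. The 9 complement genes had a median of 2.42. Their distance from the marker lists was not tested, and neither was the part of these cells in the complement result.

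Liver markers, by contrast, showed no common direction. Of 9 tested, APOA1 was higher, TF and APOC3 were lower and 6 were not called, with a median log2 difference of -0.18 and a summed signal of 7.38 and 9.38 in KO against 5.98 and 4.72 in WT. The liver's defining product, albumin (ALB), was between -5.21 and -4.58 on the 4 arrays, and the lowest signal well above background was between -6.36 and -5.72. Of the adipocyte markers 3 of 6 were higher (ADIPOQ, PLIN1 and FABP4). The summed adipocyte signal was 50.5 and 144 in KO and at most 31.9 in WT. FABP4 was the brightest gene of this list in KO, at 5.08 and 6.63. KO replicate 2 thus stood above KO replicate 1, as it did at 14 of the 15 complement probes. No neutrophil marker of 4 was called in limma, with 1 (S100A9) at an unadjusted p under 0.05. Their log2 differences were all negative, from -3.74 to -2.25 with a median of -3.09, and at LTF the genotypes overlapped. The WT arrays lay far apart. S100A8 was -1.43 and 0.97 in KO, against 5.12 in WT replicate 1 and 1.14 in WT replicate 2. All 4 B cell markers were lower in KO, with a median of -3.46.

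**Figure D4:**
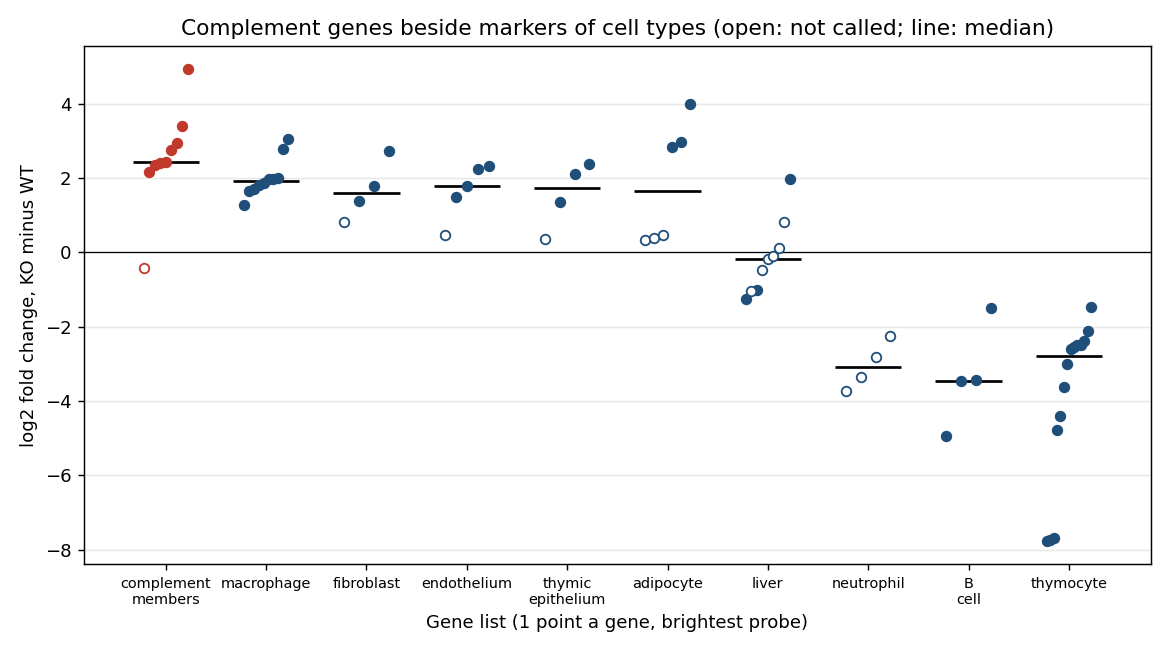
Each point is the log2 difference, KO minus WT, of 1 gene by its brightest probe, for the 9 complement genes in red and for marker lists of cell types in blue, with open points for genes that were not called and a line at the median of each list. The complement genes other than CD46 lie among and above the macrophage, fibroblast, endothelial and epithelial markers, CD46 lies below all of these, and thymocyte and B cell markers lie below 0.

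The 14 calls did not depend on the scaling of the arrays, the background correction or a block in limma. Over these settings the log2 differences of the called members other than C7 stayed between 1.75 and 3.41. With 2 arrays per genotype an exact permutation test of 1 probe cannot give a p below 0.333, so the adjusted p values rest on a spread that limma pools over probes, and they measure only the spread between these samples. By the methods' t-test 10 of the 15 probes passed at an unadjusted p under 0.05, and 0 passed after adjustment over all probes.

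**Figure D5:**
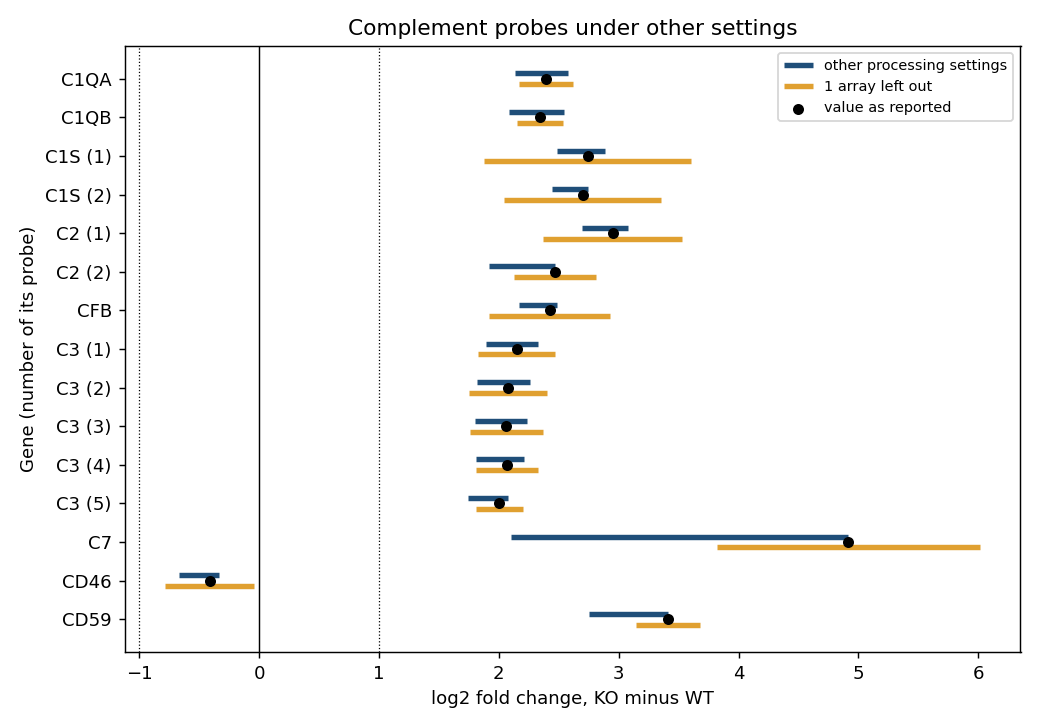
For each of the 15 complement probes, the black point is the log2 difference as reported, the blue bar its range over other scalings, backgrounds, filters and blocks, and the orange bar its range with 1 array left out. The bars of the 14 called probes lie right of the dotted line at 2-fold throughout, and those of CD46 lie left of 0.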

How the data were processed

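The authors extracted thymus RNA with RNeasy columns, labelled it with Cy3 and hybridised it to Agilent 4x44K porcine arrays, per the labels. The study's methods name Cy3 and Cy5 for sample and control RNA, but the labels and files give 1 channel, Cy3, for every sample, and the arrays were treated as 1-colour. The deposited intensity values are the scanner output of Feature Extraction 11.0.1.1, background-subtracted, detrended and not normalized between arrays. The authors also deposited log2 values for 27974 probes, whose Pearson's r with the log2 scanner signal was 0.9998 or more. Their columns had the same median, 8.49, and the normalization is not named in the sources used here. The deposited flags mark outlying, saturated and well detected spots (code other than a measurement).

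Here control and outlier spots were dropped (6 of 43603 probes), spots of a probe were averaged as log2 intensity, and each array's 75th percentile was subtracted. Probes well above background on both arrays of either genotype were fitted with lmFit and eBayes (limma 3.58.1, R 4.3.3), with tables and plots in Python 3.11.15. No spot was saturated. Accessions named 6686 probes (15.3%) of 3020 genes through the RefSeq table of Sscrofa11.1, which served for names and neighbours alone. A gene stands by its brightest probe. The text names every member, the complement and marker lists by their counts, and IL2RG. Some genes counted in the lists are not reported singly here. The steps were tested on simulated data. Members and lists were chosen with earlier results of these data known. The slide came from the array identifier in the file headers. No sequences were printed, since none was in the files used here.

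Alternatives were quantile normalization, median scaling, normexp (offset 50) on median spot intensity, the deposited log2 values, no filter or a filter on all 4 arrays, the slide or replicate number as a block, an intensity trend, the methods' t-test (unadjusted, Benjamini-Hochberg, Bonferroni), other probes of a gene, and each array left out. Setting a dim C7 spot to the lowest detected signal was chosen after the values were seen. The number of arrays limits the precision.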

Additional observations from a re-analysis of the deposited data

How the results depend on the processing

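The 14 calls among the complement probes were 14 or 13 under every limma setting on all 4 arrays, and C7 was the probe lost where probes had to be detected on all arrays. With 1 array left out, 12 to 14 remained, 6 to 14 of them at 4-fold or more, with 9 at 4-fold under median scaling. Without KO replicate 2 the count at 4-fold was 6, and without WT replicate 2 it was 8. By the methods' t-test 10 were called at an unadjusted p, and 0 with Benjamini-Hochberg or Bonferroni adjustment. Over all probes 10882 were called, 6611 under normexp, 1505 and 0 by the methods' t-test with these adjustments, and 6093 to 12713 with 1 array left out (6424 without KO replicate 1, 6093 without KO replicate 2). Of the other complement genes 12 were called higher, 7 to 13 with 1 array left out (7 without either KO array), and 1 and 0 by the methods' t-test with Benjamini-Hochberg and Bonferroni adjustment. The 1 called lower, C5, was called in 0 to 1 with 1 array left out, being lost without either KO array, and in 0 by the methods' t-test at any adjustment. IL2RG, at -3.41, had adjusted p values of 0.0614 and 1 by the methods' t-test, with an exact permutation p that cannot fall below 0.333. Its values with 1 array left out were -3.74 to -3.09.

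Median scaling moved the median log2 difference of all probes by -0.26, to -0.32, and the share of calls that were increases from 61.7% to 47.8%, but no member changed its direction. Some genes that were not called changed sign. FCN1 was -0.00696 under median scaling, and C9 was -0.25, -0.22, -0.18 and -0.0318 under quantile normalization, median scaling, normexp and the deposited values. With 1 array left out, FCN1 ranged from -1.07 to 1.57, C9 from -0.86 to 0.94, MASP1 from -0.38 to 0.18 and VTN from -1.64 to 0.38. The cause was not tested. The deviations of arrays with the same replicate number correlated at r = -0.29 across probes. With 2 arrays per genotype the value for arrays of a slide is the mirror of this, r = 0.29, and no separate result. With the slide as a block, which crosses the numbers, 11124 probes were called. With the replicate number as a block 10668 were called, and all 14 complement calls stood under either block.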

Other observations

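Interferon response genes were read beside the complement genes from a list of 17, of which 16 were tested. In limma 13 of them were higher in KO, and the median log2 difference was 1.78. Of all tested probes 21.0% were called higher, and their median was -0.06 over all. The chemokine gene CXCL9 was 5.30 and 5.44 in KO against 0.83 and -0.02 in WT. MX1, IFIT1 and PSMB8 were not called, and the genotypes overlapped at MX1, an antiviral effector. The part of the interferon genes in the complement result was not tested.

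The KO arrays differed by more at some adipocyte genes than at most complement genes. ADIPOQ, the gene of adiponectin, was 0.26 in KO replicate 1 and 1.91 in KO replicate 2, and FABP4, a fatty acid carrier, was 5.08 and 6.63. FCN2 and CFB were higher in KO replicate 2 by 1.43 and 1.01. By their brightest probes FCN1, C9 and VTN were higher there by 1.56, 1.40 and 1.11. The WT arrays differed by more at these probes, with WT replicate 1 minus WT replicate 2 at 2.64, -1.80 and 2.01. At the other VTN probes KO replicate 2 minus KO replicate 1 was between -0.32 and 0.24. Of the 15 probes of the chosen genes 14 were higher in KO replicate 2.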
